A study of Mus musculus with 3 samples.

Results

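The locus described here is the divergent piRNA cluster of mouse chromosome 7, chosen by position: all sequences of the deposited list on chromosome 7 with a start from 80920001 to 81000000 on mm9. It held 23886 of the 2219118 distinct sequences of the list (1.08%). The place was chosen because earlier counts had found many sequences there, so its number is a description and carries no test. The list pools small RNAs from 3 immunoprecipitates of testes, all labelled C57BL/6, with 1 library each. In the first, Mili was precipitated from testes lacking Tdrd1 (15 dpp, days post partum), in the next Tdrd1 from testes of adults with no genotype given, and in the last Mili from wild-type testes of adults. The labels do not give the knockout allele or whether testes of several animals were pooled, and the knockout library differs from the others in age as well. Each sequence stands once, with a chromosome, a start and an end but no library, read number or strand. No library could therefore be set against another, and the loss of Tdrd1 in the knockout could not be checked. A small RNA read once counts as much here as one read many times. Whether a small RNA came from more cells or from more RNA per cell, and from which of the libraries, cannot be told apart.

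Mili, encoded by Piwil2, belongs to the Piwi proteins of the germ line, which bind piRNAs and are led by them to complementary RNA. Tdrd1 has Tudor domains, with which it binds Mili. In meiotic mouse germ cells most piRNAs are cut from long single-stranded transcripts of a limited number of genomic clusters. Many such clusters are transcribed in both directions from a shared promoter, bound by the transcription factor A-MYB (Mybl1). A primary piRNA usually begins with U. In the amplification (ping-pong) cycle, a piRNA guides the cut of a complementary RNA, and the new piRNA overlaps the first by 10 nt at their 5′ ends.

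Letters of the promoter are shown because the locus turns there from one strand to the other. The window is that of Gm10619 in the RefSeq promoter table, 250 bases before to 50 after the annotated start, on the minus strand of GRCm38.p6 at chr7:73816454-73816753. Capitals mark matches on either strand to the MYB site CAACTG, its variant TAACTG, the variant CAACGG or the variant TAACGG, none of which overlapped another motif.
Gm10619 promoter: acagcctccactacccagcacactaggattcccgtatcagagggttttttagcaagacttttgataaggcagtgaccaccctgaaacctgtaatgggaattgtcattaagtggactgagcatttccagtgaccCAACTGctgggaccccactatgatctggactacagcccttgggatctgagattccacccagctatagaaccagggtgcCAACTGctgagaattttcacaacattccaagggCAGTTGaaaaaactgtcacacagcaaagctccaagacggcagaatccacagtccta

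The window held 3 matches to CAACTG, at bases 134 to 139 and 212 to 217 on the printed strand and at bases 245 to 250 on the other strand, and 0 matches to the other 3 MYB sites. The start of Gm10619 is base 251 of the window, and the start of Gm21269 in GENCODE, on the opposite strand, is base 208. Matches at 212 and 245 thus lie between the starts of the genes. Of the 32851 promoter windows of the table, 13.7% hold CAACTG on at least 1 strand and 0.113% (37 windows) hold 3 or more matches. For any of the 4 MYB sites searched, the shares are 28.3% with at least 1 match and 0.743% (244 windows) with 3 or more. The CCAAT box (CCAAT) and the TATA box (TATAAA) had 0 matches in the window, against 37.4% and 13.6% of all windows with at least 1. A match is a run of letters and does not show that a factor binds.

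The 5′ ends with most distinct sequences in each arm are shown because they display how members vary: 1 fixed 5′ end carries several 3′ ends. Letters are those of the deposited list, 5′ to 3′, with T standing for U and positions on mm9. Capitals mark the 3′ bases that the shortest sequence of the family lacked. On the minus strand, running away from the promoter through Gm10619, the families with most members were these.
Minus 1, chr7:80942605-80942634: tgaaagttgtagaatgtgGCAGAGCCGGAT
Minus 2, chr7:80952434-80952464: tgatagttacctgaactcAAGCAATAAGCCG
Minus 3, chr7:80946778-80946807: tgatatcaatgaactgggaGAGGACAAAAC
Minus 4, chr7:80952432-80952461: tagttacctgaactcaagCAATAAGCCGCC
Minus 5, chr7:80932001-80932030: tgggatggtatttggagttaCATGTGTGAC

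On the plus strand, through Gm21269, they were these.
Plus 1, chr7:80969929-80969958: tgggctgtttggcattgaaGTGTAGAGCCT
Plus 2, chr7:80962578-80962607: tgactgtctgcttagaacggCTGTGTCCCT
Plus 3, chr7:80962573-80962602: taccatgactgtctgcttAGAACGGCTGTG
Plus 4, chr7:80962684-80962713: tggctatgacagaatgacagaGGGCTATCT
Plus 5, chr7:80962690-80962718: tgacagaatgacagagggctATCTATGCT

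All 10 began with U, and 1 of them had A at position 10. Minus 1 and Minus 2 had 12 sequences each, Minus 3 and Minus 4 had 11 and Minus 5 had 10. Plus 1 had 12, Plus 2 had 11, and Plus 3 to Plus 5 had 10 each. Members of these families ran from 18 to 31 nt. Minus 2 and Minus 4, Plus 2 and Plus 3, and Plus 4 and Plus 5 are pairs of neighbouring 5′ ends whose sequences overlap for most of their length, so the 10 families stand for fewer separate places.

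The locus was divided by strand at a single point. Strand was inferred for 23724 members (99.3%) from bases shared by overlapping sequences, which gave 17606 on the minus strand and 6118 on the plus strand. The point that best parted the strands was position 80961390. To its left, 115 of 17634 sequences lay on the plus strand (0.652%, 95% interval 0.539 to 0.782%), and to its right 6003 of 6090 (98.6%, 98.2 to 98.9%). Intervals here and below are exact binomial or Poisson intervals. They cover counting error only, and neighbouring sequences of 1 transcript are not independent. The dividing point was chosen as the best for these same sequences, and the intervals on its sides do not cover that choice. Between the last 5′ end of the minus-strand arm, at 80961371, and the first of the plus-strand arm, at 80961408, lay 36 nt without a 5′ end. The annotated starts of Gm10619 and Gm21269 (80961389 and 80961432, placed on mm9 by the sequences that match their first exons) bracket 42 bases at the same point. The rightmost 5′ end of the minus-strand arm lay inside the first exon of Gm10619, and 5 sequences of the plus-strand arm began upstream of the annotated start of Gm21269.

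**Figure D1:**
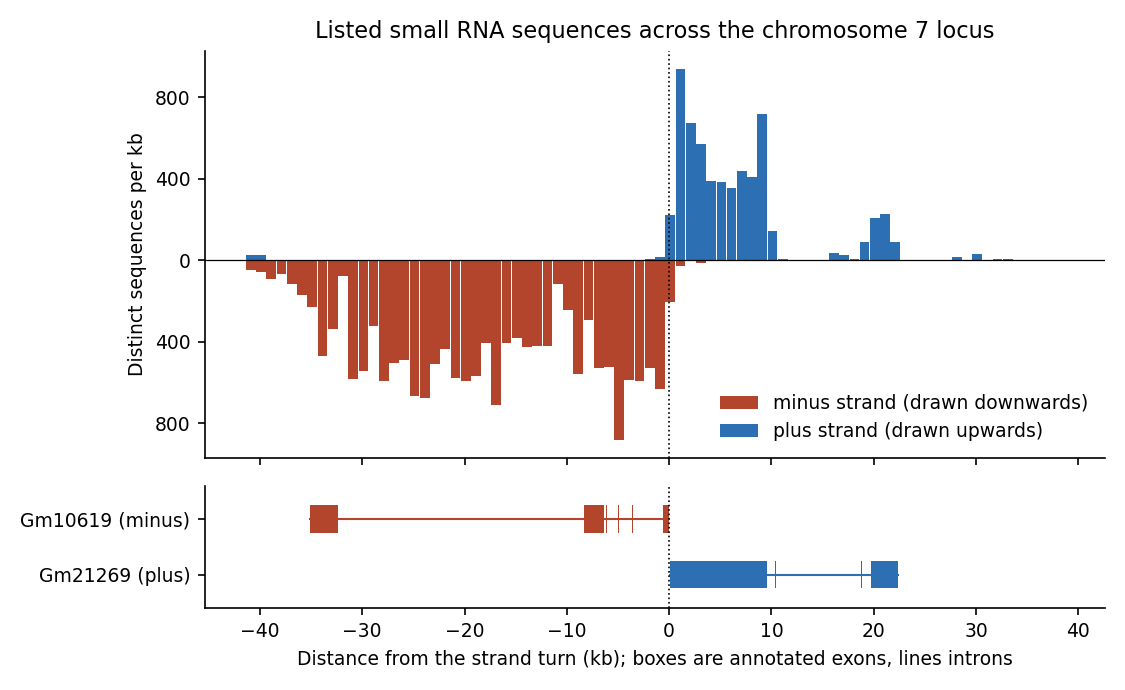
Distinct listed sequences per kb (vertical axis) by distance from the strand turn in kb (horizontal axis), minus strand drawn downwards and plus strand upwards, with annotated exons as boxes and introns as lines below. The minus-strand arm runs through both introns and exons, with up to 879 sequences per kb, whereas the plus-strand arm falls away after the first exon of Gm21269 and reappears over its last exon.

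The arms differed in size and reach. The minus-strand arm held 17519 sequences and the plus-strand arm 6003, 2.92 times fewer. From 80930001 to the turn the minus-strand arm ran without a break at the scale of 1 kb: its 31 windows held from 118 to 879 minus-strand sequences, with a median of 530. In that stretch 86.5% of positions were covered by a minus-strand sequence, and the longest uncovered run was 213 nt. The first exon of Gm21269, where most of the plus-strand arm lay, was covered at 89.4% of positions, with a longest uncovered run of 148 nt. A median of 9 sequences covered a position in each stretch, so within them the arms were alike in depth of distinct sequences.

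Among 1-kb windows, the richest of the minus-strand arm began at 80956001 with 879 sequences, followed by 80944001 (708), 80937001 (674), 80936001 (666) and 80960001 (633). The richest of the plus-strand arm began at 80962001 with 937 sequences, followed by 80970001 (719), 80963001 (673), 80964001 (569) and 80968001 (438). The minus-strand maxima were thus spread along the arm, and 3 of the plus-strand maxima adjoined each other near the turn. Cut into windows of 20 kb from left to right, the locus held 7101, 9792, 6269 and 724 sequences, and all but the last of these windows were among the 100 richest of the list.

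The genes that matched most members are noncoding. Gm10619, a long noncoding RNA on the minus strand, matched 2315 sense and 22 antisense sequences over their whole length, and Gm21269, a long noncoding RNA on the plus strand, matched 5705 sense and 86 antisense sequences. Every strand call that could be compared with the strand of a match (10179 comparisons) was the one the match gives, and 0 members matched a transcript of another chromosome. Sense matches to annotated exons made up 35.0% of members (34.4 to 35.7%). The share was 14.8% (14.3 to 15.3%) in the minus-strand arm and 94.8% (94.2 to 95.3%) in the plus-strand arm. Introns included, the annotated span of Gm10619 held 16909 sequences of the minus-strand arm (96.5%, 96.2 to 96.8%). That span rests on 1 of 3 GENCODE transcripts, since the others end at 80953108. From the start of the gene to that end lay 4722 minus-strand sequences by midpoint, against 17519 in the whole arm. Only by the transcript that runs further did most of the arm lie within the gene and outside its exons.

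The introns of the genes differed in density. Exons were merged across transcripts, and an intron is what lies between merged exons. On the strand of Gm10619 its introns held 14499 sequences, 490 per kb (482 to 498), and its exons 2407, 438 per kb (421 to 456), a ratio of 1.12. On the strand of Gm21269 the introns held 235 sequences, 23.7 per kb (20.8 to 27.0), and the exons 5697, 457 per kb (446 to 469), a ratio of 0.0519. Introns and exons of Gm10619 were thus nearly equally dense, whereas in Gm21269 sequences lay mostly in exons. With 1 pooled list this contrast has no replicate check.

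The GENCODE transcripts of Gm10619 differ in their far end, on which most of these intron counts rest: 1 of 3 (Gm10619-202) runs on to the last exon, and the others end at 80953108. Up to that end the introns held 3280 sequences, 598 per kb (578 to 619), and the exons 1442, 515 per kb (489 to 542), a ratio of 1.16 in place of 1.12. This split was made after the values were seen. The RefSeq entry of Gm10619, 8282 bp long, does not reach the last exon either.

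The largest intron, intronic in Gm10619-202 alone and past the end of the other transcripts, spans 24099 bp from 80929009 to 80953107 between the merged exons. It held 11219 minus-strand sequences, 466 per kb (457 to 474), above the 358 per kb (336 to 382) of the last exon. The merged exon before it, from 80953108 to 80955068, had 435 per kb (407 to 466). That exon belongs to the other transcripts and is itself intronic in Gm10619-202, so no single transcript has it beside this intron. The other introns had 588, 739, 513 and 255 per kb in the order of transcription, and the first 4 exons had 594, 1019, 813 and 885 per kb. Exons 2 to 4 are short, so their intervals are wide: 835 to 1231 per kb for exon 2. In Gm21269 the intron of 8281 bp from 80971868 to 80980148 held 85 sequences, 10.3 per kb (8.20 to 12.7). Its neighbours of 807 and 809 bp had 78.1 and 108 per kb. The first exon (9486 bp, 80961432 to 80970917) had 536 per kb (522 to 551), the second 580 (462 to 720), the third, of 125 bp, 56.0 (22.5 to 115) and the last, of 2702 bp, 192 (176 to 210). The third exon thus lay between the densities of its flanking introns, and the last had less than the first.

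**Figure D2:**
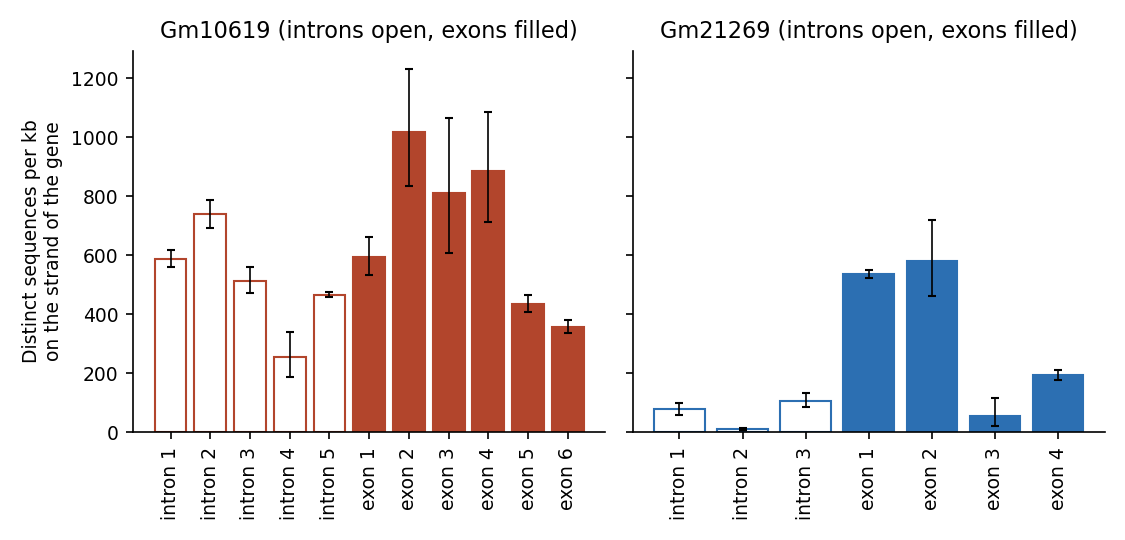
Distinct sequences per kb on the strand of the gene (vertical axis) in each intron (open bars) and exon (filled bars) of Gm10619 and Gm21269, merged across transcripts and numbered in the order of transcription, with exact Poisson 95% intervals as error bars. The introns of Gm10619 stand at 255 to 739 per kb, and those of Gm21269 at 10.3 to 108 per kb, below its first, second and last exons.

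In Gm10619 intronic and exonic sequences had overlapping intervals for the first base. U began 59.4% of intronic sequences of 24 to 32 nt (58.5 to 60.2%) and 59.9% of exonic ones (57.9 to 61.9%). Over all lengths, intronic sequences averaged 26.3 ± 1.84 nt and exonic ones 26.4 ± 1.74 nt (SD over sequences). In Gm21269 U began 71.4% of the 227 intronic sequences of that size (65.0 to 77.2%) and 61.2% of the exonic ones (59.8 to 62.5%).

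Beyond the furthest annotated ends the arms faded. On the minus strand 610 sequences lay between the furthest end of Gm10619 and the left edge of the locus, 96.6 per kb. On the plus strand 66 lay beyond the end of Gm21269, 4.07 per kb. At the edges, the first 10 kb inside the left bound held 1758 sequences and the nearest 10 kb outside it 370. The last 10 kb inside the right bound held 64 and the nearest 10 kb outside it 3.

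The annotations disagreed on where Gm21269 begins. GENCODE starts it 42 bases from Gm10619, whereas RefSeq starts it within the first GENCODE exon, at a place that falls on 80970810 of mm9 by the 211 members matching the RefSeq promoter window. Of the plus-strand arm, 4992 sequences (83.2%) had their 5′ end in the 9378 bases between those starts. The RefSeq promoter of Gm21269 therefore lies inside the sequence-rich exon, and the window of Gm10619 shown above covers the GENCODE start of Gm21269 and of all transcripts of Gm10619 but Gm10619-202, which starts at what would be base 323, beyond the window. In that window 73 members matched, 17 on the strand of Gm10619 and 56 on the strand of Gm21269.

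3 further annotated genes matched 20 or more members. Gm45006, an unclassified transcript on the minus strand inside the largest intron of Gm10619, matched 290 sense sequences (420 per kb, 373 to 472), near the density of that intron. Fam174b, a protein-coding gene on the plus strand an exon of which lies at the left edge of the locus, matched 60 sense and 103 antisense sequences. Over the 1805 bp of the exon inside the locus, midpoints gave 29.9 per kb (22.5 to 39.0) on its own strand and 54.3 per kb (44.1 to 66.2) on the other. The antisense sequences run in the direction of the minus-strand arm, whose far end meets this exon. U began 79.7% of the sense sequences (67.2 to 89.0%) and 64.4% of the antisense ones (54.2 to 73.6%), intervals that overlap.

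Mir7234 is annotated as a microRNA hairpin in the first exon of Gm21269 (80964476 to 80964527), and its sequences are shown because members overlie it. RefSeq (GRCm38.p6) gives these mature forms, with the seed, bases 2 to 8, in capitals. The last line is the longest member that begins at the same base as the first.
mmu-miR-7234-5p: uUGUUUUCuccaaagacguuucu
mmu-miR-7234-3p: aAACGUCUuucuaggguagaagg
Member, chr7:80964476-80964503: ttgttttctccaaagacgtttctaggta

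Within the hairpin lay 30 plus-strand members and 0 minus-strand members over their whole length, of which 29 measured 24 to 32 nt. Counted by midpoint, as for the exons, the 52 bases held 63 plus-strand members, 1212 per kb (931 to 1550), against 536 per kb in the whole exon. With 24 5′ ends in so short a stretch these members are not independent. In all, 73 members began at 24 different bases of the hairpin, and the most used one, base 41, was neither mature 5′ end. Only 3 members began at the annotated 5′ end of miR-7234-5p, with 26 to 28 nt, and 0 at that of miR-7234-3p. Neither mature form stood in the list as such. Both mature forms measure 23 nt, below the RNA of about 28 to 30 nt that the gel selected. Sequences of 23 nt were listed all the same, 24411 of them outside the locus. The RNA came from immunoprecipitates of Mili or Tdrd1. Why neither mature form was listed was not tested, and their absence from the list says nothing about their presence in the testis.

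Members were on average shorter than the rest of the list, and a smaller share began with U. Other rich places had values near those of the locus. The mean length was 26.3 ± 1.81 nt in the minus-strand arm and 26.3 ± 1.84 nt in the plus-strand arm, against 27.1 ± 1.68 nt in the rest of the list (SD over sequences). Lengths of 24 to 28 nt, the size of Mili-bound piRNAs, made up 84.1% (83.5 to 84.6%) of the minus-strand arm and 83.5% (82.5 to 84.4%) of the plus-strand arm, against 78.1% of the rest. Lengths of 29 to 32 nt made up 9.76% of the minus-strand arm and 9.51% of the plus-strand arm, against 20.01% of the rest. U began 59.9% (59.1 to 60.6%) of sequences of 24 to 32 nt in the minus-strand arm, 61.8% (60.5 to 63.0%) in the plus-strand arm and 68.8% (68.7 to 68.9%) in the rest. A came next, with 18.1%, 16.6% and 14.4%. For the share of U and of 24 to 28 nt the intervals of the arms overlap and those of the rest lie apart from both. With 1 pooled list no difference between sets was tested.

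Whole-locus values stood near those of 1 of 2 comparison regions and of the other rich windows. U began 60.4% of members of 24 to 32 nt (59.7 to 61.0%), against 61.5% (60.9 to 62.1%) in the 100 kb around the richest window of chromosome 9 and 60.2% in the rest of the 100 richest windows. The mean length was 26.3 nt, against 26.3 nt on chromosome 9 and 26.4 nt in those windows. The 100 kb around the richest window of chromosome 17 had U first in 53.4% (53.0 to 53.9%), an interval apart from that of the locus, and a mean length of 26.2 nt. By share of U the first 3 windows of 20 kb of the locus ranked 55, 60 and 66 of the 100 richest, whose shares ran from 23.95 to 77.4%.

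**Figure D3:**
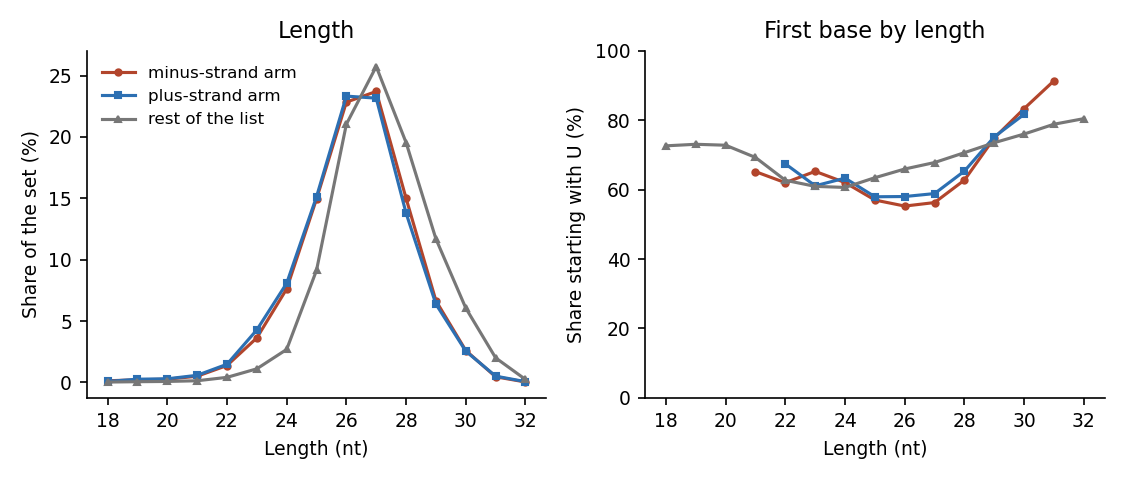
Share of each set by length in nt (left) and share starting with U at each length with 50 or more sequences (right), for the minus-strand arm, the plus-strand arm and the rest of the list. The arms lie on each other and to the left of the rest, with means of 26.3, 26.3 and 27.1 nt.

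First bases changed along the arms. In the minus-strand arm U began 53.2% (51.4 to 55.0%) of sequences within 5 kb of the turn and 63.3% (61.2 to 65.4%) at 5 to 10 kb. Further out the share went between 56.5% (at 20 to 25 kb) and 63.6% (at 25 to 30 kb) up to 35 kb, and stood at 72.4% (68.4 to 76.1%) at 35 to 40 kb, where the arm had thinned to 109 sequences per kb. In the plus-strand arm it was 59.0% (57.1 to 60.8%) within 5 kb and 63.8% (61.6 to 65.9%) at 5 to 10 kb. In both arms the 5 kb next to the turn had the most sequences, 649 and 603 per kb, and a lower share of U than the next 5 kb. Mean lengths there were 26.2 and 26.1 nt, against 26.4 nt in the next 5 kb of either arm.

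U positions were used as 5′ ends more often than other bases. On the minus strand from 80930001 to the turn, U made up 26.7% of the covered positions, and 45.9% (44.7 to 47.0%) of those U positions served as a 5′ end of some listed sequence. The same was true of 20.1% of A positions, 16.7% of C positions and 14.9% of G positions. In the first exon of Gm21269 U made up 27.3% of covered positions, and the shares in use were 46.7% (44.6 to 48.7%) for U, 20.98% for A, 16.4% for C and 14.2% for G. Both arms thus used the bases in the same order and at nearly the same rates. The base after the 3′ end was U in 26.5% of 3′ ends (25.6 to 27.4%) in the minus-strand arm and 26.5% (25.0 to 28.0%) in the plus-strand arm, about the U content of the strands.

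Each 5′ end carried a median of 2 distinct sequences, with a mean of 2.29 on the 7645 ends of the minus-strand arm and 2.27 on the 2648 ends of the plus-strand arm, and at most 12. U stood at 80.8% (78.0 to 83.4%) of the 855 minus-strand ends with 5 or more sequences and at 37.4% (35.8 to 39.0%) of the 3473 ends with a single one. On the plus strand the shares were 81.8% (76.9 to 86.1%) of 286 ends and 40.6% (37.8 to 43.3%) of 1255 ends. The ends with 5 or more held 29.3% and 29.1% of the sequences of their arms. The number of distinct sequences at an end also depends on how often it was read, which is unknown here.

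**Figure D4:**
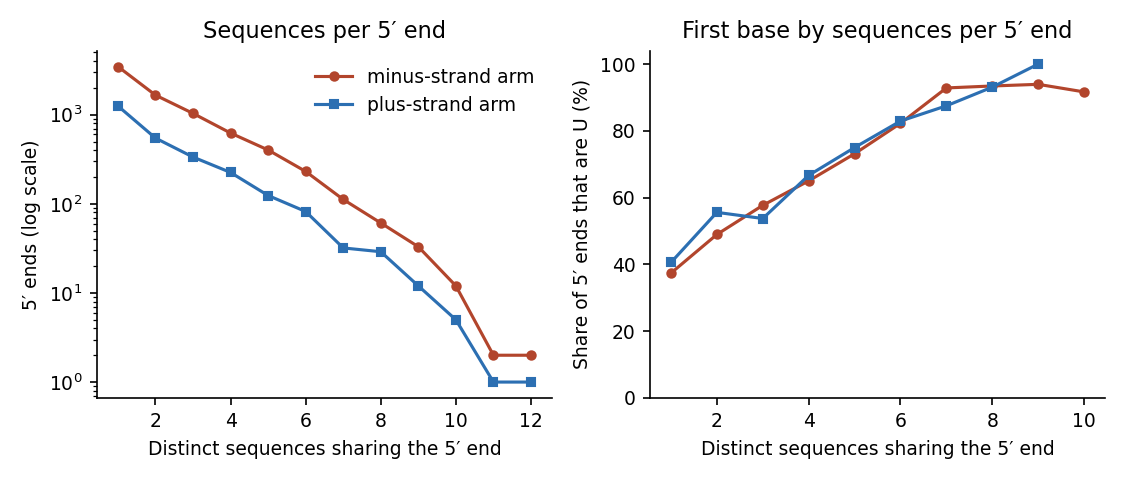
Number of 5′ ends (left, log scale) and share of them that are U (right, for sizes with 10 or more ends) by the number of distinct sequences that share the 5′ end, for the minus-strand and the plus-strand arm. The share of U is 37.4% and 40.6% at ends with 1 sequence and lies above 70% from 5 sequences on in both arms.

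A small number of members ran against the strand of their arm, 202 in all: 87 on the minus strand right of the turn and 115 on the plus strand left of it. On the right 81 of the 87 lay within 5 kb of the turn. On the left 54 plus-strand sequences fell in the first 2 kb of the locus, where the exon of Fam174b lies, and 23 within 2 kb of the turn.

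Opposite strands met with the 10-nt offset of the amplification cycle. Among members of 24 to 32 nt there were 244 pairs of sequences with a 10-nt overlap of 5′ ends, against 82.3 ± 17.3 pairs (SD) at the other overlaps of 1 to 20 nt, of which the highest had 114. The ratio was 2.97. It was 3.36 around the richest window of chromosome 17 (1271 pairs, against 378 ± 58.3) and 2.89 around that of chromosome 9 (196 pairs, against 67.7 ± 13.8), and these ratios were not tested against each other. Counting each 5′ end once there were 60 pairs, against 29.6 ± 4.46. The 5 kb right of the turn held 152 of the 244 pairs, against 40.4 ± 14.9 at the other overlaps there, with 73 minus-strand and 2750 plus-strand sequences. In the 5 kb left of the turn there were 37, against 18.6 ± 8.86 with a highest value of 35. Between there and the first 2 kb of the locus were 38 pairs, against 11.3 ± 6.69 with a highest value of 25. In the first 2 kb there were 14, against 6.37 ± 4.95 with a highest value of 15, and beyond 5 kb right of the turn 3, against 5.53 ± 3.15, so in these last zones 10 nt was not the most frequent overlap.

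**Figure D5:**
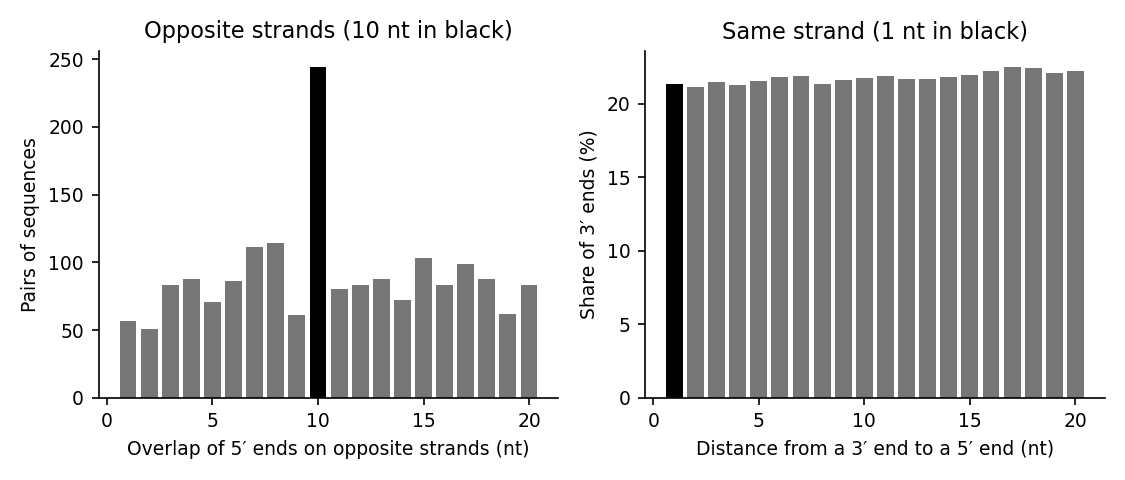
Left, pairs of sequences on opposite strands of the locus by the overlap of their 5′ ends in nt. Right, share of 3′ ends with a 5′ end of the same strand at each distance downstream in nt. The 10-nt overlap has 244 pairs and the next highest 114, whereas the distance of 1 nt, at 21.4%, lies within the 21.1 to 22.5% of the distances of 1 to 20 nt.

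The 3 pairs of 5′ ends with most sequences are shown, each end by its longest sequence, with the 10 complementary bases in capitals.
Pair 1, minus, chr7:80962634-80962662: TGAAGTGAAActgaacctgggcttttctt
Pair 1, plus, chr7:80962653-80962683: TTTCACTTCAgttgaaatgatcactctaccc
Pair 2, plus, chr7:80931960-80931989: ATCAAAATCAtggggaccagacaagatgtc
Pair 2, minus, chr7:80931941-80931969: TGATTTTGATttcaggaagtgtcatggta
Pair 3, minus, chr7:80961783-80961809: GCTGGGCAAAaggcaacacgtattaaa
Pair 3, plus, chr7:80961800-80961829: TTTGCCCAGCaacgacatgtgccccacctc

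Pair 1 combined 6 minus-strand with 4 plus-strand sequences and lay 1.26 kb right of the turn, in the first exon of Gm21269. Pair 2 combined 2 plus-strand with 6 minus-strand sequences in the largest intron of Gm10619, and Pair 3 combined 2 minus-strand with 6 plus-strand sequences close to the turn. The end against the arm began with U in Pair 1, A in Pair 2 and G in Pair 3, and its partner on the strand of the arm began with U in all 3. Of all 60 pairs of ends, 50 had U on 1 side, 8 on both and 2 on neither.

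Shares with a partner cannot be compared between members against and along their arm, since each pair takes 1 of both and the contrary set is far smaller. Each set is therefore read against its own other overlaps. A 10-nt partner was found for 87 of 193 contrary members of 24 to 32 nt (45.1%, 37.9 to 52.4%), where the other overlaps gave 20.6 ± 3.75% (SD over overlaps) and at most 29.5%. It was found for 160 of 22025 members on the strand of the arm (0.726%, 0.619 to 0.848%), where the other overlaps gave 0.282 ± 0.0567%. Contrary members with a partner began with U in 35.6% (25.6 to 46.6%), and their partners on the strand of the arm in 89.4% (83.5 to 93.7%). A stood at position 10 in 79.3% (69.3 to 87.3%) of the contrary members with a partner and 21.2% (15.2 to 28.4%) of those partners. Both sets came from 60 5′ ends each, and sequences of 1 end share these bases, so the intervals are too narrow. Base pairing ties A at position 10 to U at the partner's first base, so the shares are the same fact read from both sides. Contrary members without a partner had U first in 60.4% (50.4 to 69.7%) and A at position 10 in 41.5% (32.02 to 51.5%) of 106. The 193 contrary members include 53 plus-strand sequences of the first 2 kb of the locus, where the exon of Fam174b lies. Sense matches to Fam174b began with U in 79.7%, and they were not set apart here. In the arms at large A stood at position 10 in 33.3% (32.6 to 34.0%) on the minus strand and 31.4% (30.2 to 32.7%) on the plus strand, next to 32.2% and 30.9% at position 9.

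No excess of head-to-tail neighbours was measured on the same strand. Of 13154 3′ ends of members of 24 to 32 nt, 21.4% had a 5′ end of the same strand on the next base, against 21.8 ± 0.376% (SD) over distances of 2 to 20 nt, a ratio of 0.980. The highest share, 22.5%, was at 17 nt. At every distance at least 21.1% of 3′ ends met a 5′ end, so an order held by a small part of the sequences would not be visible here.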

How the data were processed

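The authors deposited 1 list of distinct small RNA sequences for 3 libraries, with positions on NCBI mouse build 37 per the file headers (mm9 per the submitters' processing notes). The deposited values are letters and positions, with no read count, so the depth of each library is unknown. Per the labels' protocols, RNA was taken from immunoprecipitates, eluted at about 28 to 30 nt and made into libraries with an Illumina kit. Not given in the sources used here were the aligner, the mismatches allowed and the treatment of repeats.

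Strand was called from 12-nt stretches shared with overlapping sequences and checked on simulated data. Members were matched over their whole length to GENCODE vM21 transcripts from an 18-nt seed. That annotation is on GRCm38, so exons were placed on mm9 only by these matches and merged across transcripts, and a gap of 1 base within Gm10619 was joined. Introns and exons were counted by sequence midpoint. Opposite-strand overlaps of 1 to 20 nt and 3′-to-5′ distances of 1 to 20 nt used members of 24 to 32 nt. Promoter and microRNA letters are from RefSeq tables (GRCm38.p6), matched by symbol for Gm10619, Gm21269 and Mir7234. The strand turn is the position with the fewest 5′ ends of the minus strand to its right and of the plus strand to its left. Intervals are exact at 95%. No test across conditions was possible. The members, the lists and the comparisons were chosen with earlier results of these data known. Named were genes with 20 or more members, the 5 largest families and 5 richest 1-kb windows per arm and the 3 largest pairs. Python 3.11.15 and scipy 1.17.1 were used.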

Additional observations from a re-analysis of the deposited data

Results flagged for a closer look

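Lengths outside 24 to 32 nt, left out of the first-base shares, the shares of A at position 10 and the overlaps and distances, also gave sequences. Under 24 nt there were 1509 members (6.32%, 6.01 to 6.63%), 1084 on the minus and 421 on the plus strand, against 1.85% in the rest of the list. Other rich places also had larger shares than that rest. The share was 6.08% in the rest of the 100 richest windows. Around the richest windows of chromosomes 9 and 17 it was 6.35% and 9.05%. U began 65.1% of them (62.7 to 67.5%), and 1312 of the 1505 with a strand (87.2%) shared their 5′ end with a member of 24 to 32 nt. Sharing was common at all lengths: 3473 of 17519 sequences of the minus-strand arm and 1255 of 6003 of the plus-strand arm stood alone at their 5′ end. The 87.2% was not set against a like share of longer members. Over 32 nt there was 1 member, of 33 nt.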

How the results depend on the processing

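Of 27 alternative values for 13 results, 10 stayed within counting error (for the ratios, the spread over the other offsets; for the number of members, 1.5 times), 17 went past it and 0 reversed. Most are shares with no direction. The cause of these shifts was not tested beyond what each choice leaves out. Counting each 5′ end once gave U in 50.1% (minus-strand arm) and 52.6% (plus-strand arm), A at position 10 in 32.3% and 30.0%, mean lengths of 26.41 and 26.32 nt, 10442 members in place of 23886, and a 10-nt ratio of 2.02. With 24 to 28 nt alone U began 57.8% and 59.9%, and the 10-nt ratio was 2.69. With 24 to 32 nt alone mean lengths were 26.60 and 26.56 nt. Among sequences not starting with U, A at position 10 stood at 34.3% and 32.9%. Sequences matching no exon had U in 73.1% of the plus-strand arm (305 sequences). Matches on either strand covered 35.9% of members. Strand shares did not move beyond counting error with stretches of 10 or 16 nt, nor did the head-to-tail ratio under its alternatives. No paired analysis was possible because each group is 1 library and the list names none. Read numbers are unknown, so abundance, library and depth limit every value.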

Other observations

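A small part of the members shared letters with other places, and no such share is given here for other regions or the whole list. A stretch of 18 nt was shared with a sequence listed elsewhere by 500 members (2.09%, 1.92 to 2.28%): 408 by the same letters and 116 by complementary letters, from 355 and 98 sequences elsewhere. The share was 1.95% in the minus-strand arm and 2.45% in the plus-strand arm. The windows of 1 kb starting at 80981001, over the last exon of Gm21269 (47 of 211 members, 22.3%), and at 80948001, in the largest intron of Gm10619 (44 of 424, 10.4%), held the most such members. Copies identical over a whole sequence cannot be seen, since each sequence is listed at 1 place.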
